A study of Mus musculus with 13 samples.

Results

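The genes described here are the mouse receptors for the Fc portion of IgG, Fcgr1, Fcgr2b, Fcgr3 and Fcgr4, together with Fcer1g, which encodes the signalling chain that the activating receptors share. They are the rows of the deposited expression table that carry these 5 symbols, out of 19737 genes in the table. Expression was measured in microglia, brain macrophages, across 13 RNA-seq libraries made after removal of ribosomal RNA with a kit that keeps the strand. Values are FPKM, fragments scaled to gene length and to the size of the library. Levels can be compared between genes and libraries only within limits, since the FPKM sums differed between libraries, as given below.

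Wild-type mice treated with an AAV PHP.eB vector carrying EGFP gave 3 libraries, and 5xFAD mice treated with the same vector gave 2. In 5xFAD mice, neurons express human transgenes with familial Alzheimer's disease mutations under the Thy1 promoter, and amyloid plaques form. Another 5xFAD group received an AAV PHP.eB vector for a circular RNA named circPOLR2A and gave 4 libraries. The fourth group was 5xFAD with the RNA-sensing kinase PKR knocked out (4 libraries), and its labels name no vector. All groups but the wild type thus carry the 5xFAD transgenes, and all groups but the PKR knockout are labelled with a vector. The labels write the circular RNA as (9,10), (9,11), (9,12) and (9,13) in replicates 1 to 4, while the design text gives (9,10) for the group. They give no age or sex, no method of isolating the cells, and no statement that each library came from a different animal, so p-values measure the spread between these libraries. The study's title names the delivery of such RNA to neurons and its effect on 5xFAD microglia as the question.

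Fc gamma receptors let macrophages and microglia recognise targets coated with IgG. FcγRI (Fcgr1), FcγRIII (Fcgr3) and FcγRIV (Fcgr4) are activating: they assemble with the Fcer1g chain, whose ITAM motif is phosphorylated by Src family kinases and recruits Syk, and phagocytosis and oxidative burst follow. FcγRIIB (Fcgr2b) has its own inhibitory ITIM motif, which recruits SHIP phosphatases and restrains the activating receptors, so the balance between both kinds sets the response to immune complexes. Microglia use these receptors when they take up antibody-bound amyloid.

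On GRCm38, the build also called mm10, 4 of the 5 genes lie close together on chromosome 1. Fcgr2b spans chr1:170958617-170976547 (minus strand), Fcgr4 chr1:171018920-171029761 (plus strand), Fcgr3 chr1:171051174-171064935 (minus strand) and Fcer1g chr1:171229572-171234365 (minus strand). Fcgr1 lies apart at chr3:96282909-96293969 (minus strand). These positions come from the GENCODE M21 annotation. The bases before a RefSeq start of the 3 activating receptor genes are shown because the factors known to drive Fc receptor genes in macrophages have short recognition motifs. RefSeq windows on GRCm38.p6 were found for all 5 genes and were searched on both strands from 250 bases before to 50 bases after the start. Capitals mark motif matches, each sequence is written 5′ to 3′ on the gene's strand, and exon bases were left out. Fcgr3 has 2 windows in the RefSeq table, and the first was used. Its start, 171059403, lies inside the GENCODE span of Fcgr3 given above and not at its end.
Fcgr1, chr3:96293970-96294119 (minus strand): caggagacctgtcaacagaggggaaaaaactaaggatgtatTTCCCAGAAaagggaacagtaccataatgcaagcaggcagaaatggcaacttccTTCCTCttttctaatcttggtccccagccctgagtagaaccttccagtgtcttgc
Fcgr3, chr1:171059404-171059553 (minus strand): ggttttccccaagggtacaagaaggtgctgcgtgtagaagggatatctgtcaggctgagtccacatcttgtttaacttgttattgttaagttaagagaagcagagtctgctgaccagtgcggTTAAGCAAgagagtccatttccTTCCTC
Fcgr4, chr1:171018776-171018919 (plus strand): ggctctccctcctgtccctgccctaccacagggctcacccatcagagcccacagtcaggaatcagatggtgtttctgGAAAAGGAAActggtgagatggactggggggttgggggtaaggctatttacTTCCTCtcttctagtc
The hexamer GAGGAA, the core of the site for PU.1, a macrophage master regulator, matched on the opposite strand before Fcgr1, Fcgr3 and Fcgr4, as TTCCTC. It was in 28.3% of 27025 promoter windows of the same length. Fcgr1 also held TTCNNNGAA, the motif of interferon-gamma response elements (8.47% of windows), and Fcgr4 held the repeat that interferon regulatory factors bind, GAAA and GAAA with 2 bases between (3.49%). Fcgr3 held the C/EBP motif TTGCNNAA (10.8%). For Fcgr2b, the match was to GGAA and GAAA with 2 bases between, the composite site for PU.1 with an interferon regulatory factor (2.79% of windows). It lies in an annotated exon, so only 30 bases around it, chr1:170976087-170976116 (minus strand), are shown.
Fcgr2b: gaccgtttctTTTCACTTCCccatttggac
The Fcer1g window held none of these letters. A match describes letters in a window and is no evidence of binding.

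Before the values, sequence shared between members was checked, since fragments that fit 2 genes could be split between them. Fcgr2b and Fcgr3 share stretches of their transcripts: 166 of the 1733 distinct 50-base words of Fcgr3 (9.58%) also occur in Fcgr2b, where they make up 2.92%. At 100 bases 44 words were shared, 2.54% of those of Fcgr3 and 0.753% of those of Fcgr2b. Fcgr1, Fcgr4 and Fcer1g shared no 50-base word with any other annotated gene. The longest run common to both coding sequences was 129 bases, at coding bases 278 to 406 of Fcgr2b and 263 to 391 of Fcgr3, and is shown because it is where the inhibitory and the activating receptor could not be told apart by a read lying within it.
Fcgr2b and Fcgr3: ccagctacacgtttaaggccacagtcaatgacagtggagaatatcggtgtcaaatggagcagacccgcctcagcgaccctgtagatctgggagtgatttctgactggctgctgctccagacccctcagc
The setting used for fragments that fit several genes is not given in the sources used here, and FPKM of this pair is uncertain to that extent.

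Depth, recovered from the FPKM steps that 1 fragment makes, was 45.2 to 70.0 M fragments per library, highest in the PKR knockout (64.4 ± 5.86 M, SD, n = 4, against 48.5 ± 1.75 M in wild type, n = 3). FPKM summed to 123352 to 135807 per wild-type library and 139019 to 170775 per 5xFAD library, so every 5xFAD sum was higher. Values below are not rescaled for this unless stated. Each library held 115 to 555 fragments of Fcgr4 and 3503 or more of each other member, so counting error was at most 9.33% for Fcgr4 and at most 1.69% for the others. The targeted gene of the knockout, Eif2ak2, measured 3.31 to 4.61 FPKM in the 4 knockout libraries, 6.49 and 6.59 in 5xFAD EGFP, 7.37 to 8.11 in the circRNA group and 4.14 to 5.23 in wild type. Its log2 difference from 5xFAD EGFP was −0.64 (SE 0.11, limma adjusted p = 0.0644), which did not pass. Against wild type it was −0.27 (SE 0.10, limma adjusted p = 0.0486), with overlapping groups. The circRNA group was higher than the knockout by 0.85 (SE 0.09, limma adjusted p = 0.00147), without overlap. A total over the whole gene does not show whether deleted exons lack reads, so it is no full check of the labels. All 10 microglial markers passed the filter in these libraries, with summed levels of 2611 to 4321 FPKM. The third wild-type library stood apart: its 7 oligodendrocyte markers summed to 1610 FPKM, 4.22 times the mean of the other wild-type libraries, and its microglial markers to 0.627 times theirs.

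All 5 members were detected in every library, and in the same broad order of level. In FPKM, Fcgr3 and Fcer1g came first and did not separate from each other in 3 of the 4 groups, where their ranges overlapped. Within libraries, Fcgr3 was above Fcer1g in 3 of 3 wild-type libraries, and Fcer1g above Fcgr3 in 2 of 2 5xFAD EGFP and 2 of 4 circRNA libraries. In the PKR knockout the lowest Fcgr3 library (269) was above the highest Fcer1g library (259). Fcgr1 and Fcgr2b followed, with Fcgr1 above Fcgr2b in all 13 libraries, although their ranges overlapped in the circRNA group. That order rests on the scaling to gene length, with annotated exons of 5790 bases in Fcgr2b and 2589 in Fcgr1. In recovered fragments Fcgr2b was above Fcgr1 in every library, as in wild-type replicate 1 (7076 against 5325). Fcgr4 was lowest by far, and its ranges never reached those of Fcgr2b. Among the 10817 genes that averaged 1 FPKM or more, Fcgr3 stood between percentiles 99.3 and 99.5 in each library, and Fcer1g between 98.9 and 99.5. Fcgr4 stood between percentiles 12.9 and 67.4.

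Fcgr1, the high-affinity receptor that can bind monomeric IgG, measured 43.5, 44.5 and 29.1 FPKM in the wild-type libraries and 39.1 and 36.9 in 5xFAD EGFP. It measured 42.1, 52.9, 57.6 and 39.3 FPKM in the circRNA group and 49.2, 55.3, 56.1 and 50.6 in the PKR knockout. The 5xFAD EGFP libraries lay within the wild-type range, the circRNA libraries overlapped its upper part and went above, and all PKR knockout libraries lay above every EGFP library of either genotype.

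Fcgr3, the low-affinity activating receptor that made up most of the receptor transcripts, measured 207, 191 and 124 FPKM in wild type and 219.9 and 187 in 5xFAD EGFP. It measured 225, 273, 274 and 202 FPKM in the circRNA group and 281, 269, 300.4 and 284 in the PKR knockout. The PKR knockout was again above every EGFP library, and the other 3 groups overlapped.

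Fcgr4, an activating receptor for IgG2a and IgG2b that responds to interferon in macrophages, measured 2.91, 3.71 and 1.81 FPKM in wild type and 4.97 and 4.23 in 5xFAD EGFP. It measured 5.08, 7.21, 7.10 and 5.64 FPKM in the circRNA group and 4.92, 6.31, 5.24 and 5.85 in the PKR knockout. Every 5xFAD library was above every wild-type library, and the highest values were in circRNA replicates 2 and 3.

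Fcer1g, the shared signalling chain, measured 159, 161 and 79.4 FPKM in wild type and 223 and 191 in 5xFAD EGFP. It measured 238, 274, 273 and 198 FPKM in the circRNA group and 257, 257, 237 and 259 in the PKR knockout. All 10 5xFAD libraries were above the wild-type range, and the 3 5xFAD groups overlapped with one another except that the PKR knockout lay above the EGFP libraries.

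Fcgr2b, the single inhibitory receptor, measured 25.9, 26.0 and 16.3 FPKM in wild type and 36.3 and 31.5 in 5xFAD EGFP. It measured 39.0, 42.4, 45.8 and 31.3 FPKM in the circRNA group and 45.8, 44.4, 46.2 and 41.4 in the PKR knockout. No wild-type library reached the lowest 5xFAD library. In all 5 genes the third wild-type library was the lowest of its group, at 0.660 (Fcgr1), 0.630 (Fcgr2b), 0.622 (Fcgr3), 0.549 (Fcgr4) and 0.498 (Fcer1g) times the mean of the other wild-type libraries. That library also had the low microglial and high oligodendrocyte markers given above, and their part in the low values was not tested. In the circRNA group all 5 genes were higher in replicates 2 and 3 than in 1 and 4. Oligodendrocyte markers summed to 314 and 323 FPKM in replicates 2 and 3, and to 778 and 813 in 1 and 4. Microglial markers summed to 4147 and 4321 FPKM in replicates 2 and 3, and to 3453 and 2980 in 1 and 4. The part of this split in the member values was not tested. In bulk RNA, fewer cells of a type and less RNA per cell cannot be told apart.

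**Figure D1:**
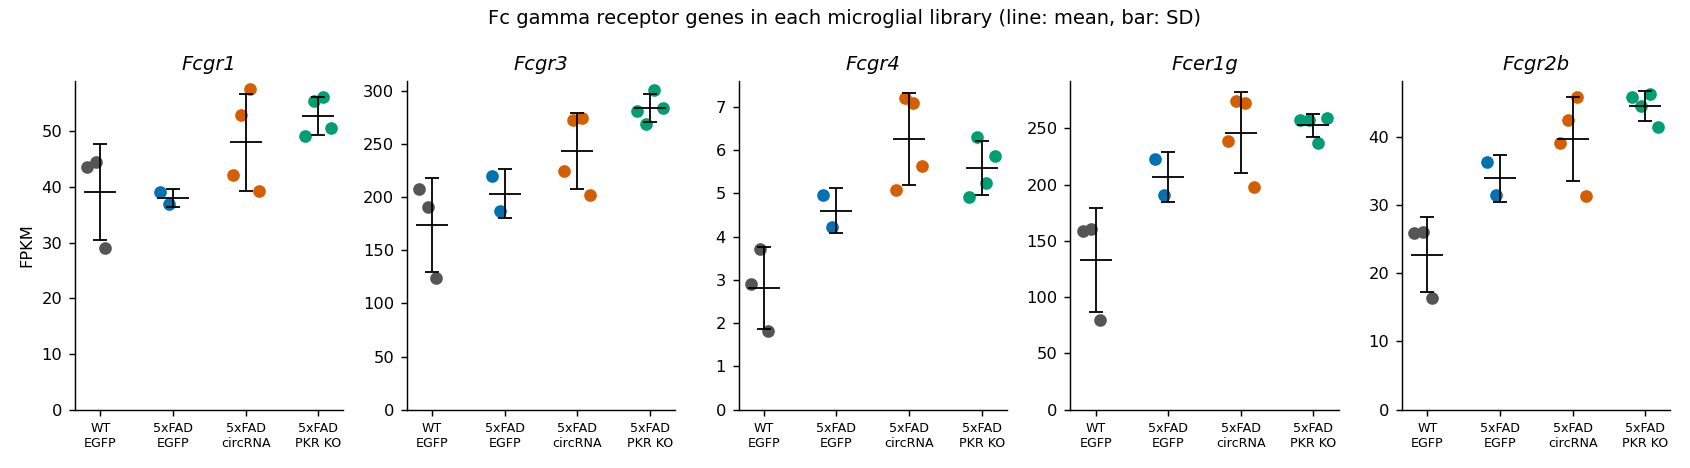
FPKM of the 5 genes (vertical axes, linear, from 0) in each of the 13 libraries (points, by group on the horizontal axis), with the group mean and SD. Fcgr2b, Fcgr4 and Fcer1g are above the wild-type range in all 10 5xFAD libraries, and Fcgr1 and Fcgr3 are above it in the 4 PKR knockout libraries. Of all tested genes, 16.5% (5xFAD EGFP), 20.2% (circRNA) and 19.8% (PKR knockout) lay wholly above that range, each group taken singly.

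The first comparison asked what the 5xFAD genotype was accompanied by among animals given the EGFP vector. In a limma fit over all 13 libraries on log2(FPKM + 1), none of the 5 genes passed an adjusted p of 0.05, while 14.0% of all tested genes did. Fcgr4 was 4.60 ± 0.52 FPKM in 5xFAD EGFP (SD, n = 2) against 2.81 ± 0.95 in wild type (n = 3), a log2 difference of 0.59 (SE 0.19, limma adjusted p = 0.0627). For Fcgr2b the means were 33.9 ± 3.38 and 22.7 ± 5.53 FPKM, a log2 difference of 0.58 (SE 0.19, limma adjusted p = 0.0646). Fcer1g had means of 207 ± 22.6 and 133 ± 46.3 FPKM, a log2 difference of 0.70 (SE 0.26, limma adjusted p = 0.101). In these 3 genes the groups did not overlap, which held upward for 16.5% of all genes. Fcgr3 differed by 0.25 (SE 0.21, limma adjusted p = 0.494), and Fcgr1 by −0.01, with a 95% interval of −0.43 to 0.40 that leaves room for a moderate change either way. A log2 difference on this scale understates the change of a low gene such as Fcgr4, whose mean FPKM was 1.64 times the wild type. The calls depended on the setting: with median-ratio scaling Fcgr2b (adjusted p = 0.0312) and Fcgr4 (0.0471) passed, as did 1741 of all 10817 genes. With a covariate for non-microglial markers Fcgr2b (0.0201), Fcgr4 (0.0053) and Fcer1g (0.0224) passed, as did 2550 genes. Without the third wild-type library no member passed, and the differences were 0.37 for Fcer1g (limma adjusted p = 0.129), 0.37 for Fcgr2b, 0.38 for Fcgr4, 0.03 for Fcgr3 and −0.21 for Fcgr1.

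The second comparison, circRNA against EGFP within 5xFAD, asked what the circular RNA changed. None of the 5 genes passed, as no gene in the table did (0.00% of those tested, limma, with 523 genes at an unadjusted p under 0.05). The 4 circRNA libraries of Fcgr4 averaged 6.26 ± 1.06 FPKM (SD, n = 4), and the log2 difference from EGFP was 0.36 (SE 0.18, limma adjusted p = 0.739, 95% interval −0.03 to 0.76). For Fcgr1, with a mean of 48.0 ± 8.68 against 38.0 ± 1.56 FPKM, it was 0.31 (SE 0.18, limma adjusted p = 0.739). Their groups did not overlap, as for 16.6% of all genes in the upward direction. Fcgr3 differed by 0.25, Fcer1g by 0.24 and Fcgr2b by 0.21, and in each the groups overlapped. Without 5xFAD EGFP replicate 2 these were 0.13, 0.13 and 0.11, and without circRNA replicate 3 Fcgr2b was 0.14. Without circRNA replicate 4 Fcgr2b was 0.32. Over the other settings of scaling, filter and design, Fcgr3 ran from 0.09 to 0.34, Fcer1g from 0.08 to 0.40 and Fcgr2b from 0.05 to 0.33. Fcgr1 ran from 0.15 to 0.39 and Fcgr4 from 0.23 to 0.43, and no member passed in any of them. The unadjusted p of the members was 0.0671 or more.

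The third comparison set the PKR knockout against EGFP within 5xFAD. None of the 5 genes passed, where 0.0832% of all genes did, but in 4 of them all 4 knockout libraries were above both EGFP libraries (17.7% of all genes). Fcgr3 was 284 ± 13.0 FPKM (SD, n = 4) against 203 ± 23.4 (n = 2), a log2 difference of 0.48 (SE 0.20, limma adjusted p = 0.341). Fcgr1 was 52.8 ± 3.42 against 38.0 ± 1.56 FPKM, a log2 difference of 0.46 (SE 0.18, limma adjusted p = 0.312). Fcgr2b differed by 0.38 (SE 0.18, limma adjusted p = 0.395) and Fcer1g by 0.29 (SE 0.25, limma adjusted p = 0.617). Fcgr4 differed by 0.23 (SE 0.18, limma adjusted p = 0.589) and its groups overlapped. With the covariate for non-microglial markers Fcer1g differed by 0.03 and Fcgr4 by 0.02, and without 5xFAD EGFP replicate 2 by 0.18 and 0.14. Fcgr1, Fcgr3 and Fcgr2b differed by 0.27, 0.30 and 0.22 with the covariate. Fitted on these 2 groups alone, Fcgr1, Fcgr2b and Fcgr3 passed, with limma adjusted p of 0.0240, 0.0469 and 0.0420, where 577 of all 10817 genes passed and 212 were higher. The PKR knockout is also the only group whose labels carry library names and the only one whose labels name no vector, so knockout, vector and any batch cannot be told apart. Summed oligodendrocyte markers were 231 to 387 FPKM in the knockout and 669 and 710 in 5xFAD EGFP, without overlap, although none of the 7 passed (median log2 difference −1.51). Their part in the member values was not tested.

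Against wild type, the circRNA group was higher in 3 of the 5 genes, where 25.8% of all genes passed and 17.8% were higher. Fcgr4 rose by 0.95 on the log2 scale (SE 0.16, limma adjusted p = 0.000949), 2.23 times the wild-type FPKM. Fcer1g, at 246 ± 36.0 against 133 ± 46.3 FPKM, rose by 0.94 (SE 0.22, limma adjusted p = 0.00728). Fcgr2b, at 39.6 ± 6.21 against 22.7 ± 5.53 FPKM, rose by 0.79 (SE 0.16, limma adjusted p = 0.00327). These 3 groups of libraries did not overlap, as for 20.2% of all genes in the upward direction. The other two activating receptors did not pass: Fcgr3 differed by 0.50 (SE 0.18, limma adjusted p = 0.0538) and Fcgr1 by 0.30 (SE 0.16, limma adjusted p = 0.201). Fcgr3 passed in a count test on recovered fragments (0.0451), with the marker covariate (0.0413), without wild-type replicate 1 (0.0289) and without circRNA replicate 4 (0.0335). Without the third wild-type library Fcgr3 differed by 0.28 (adjusted p = 0.18) and Fcgr1 by 0.10, and rescaled to the same sum they differed by 0.21 and 0.01 and Fcgr2b by 0.51. Fcer1g lost its call when these 2 groups were fitted alone (adjusted p = 0.0515). Without the third wild-type library its difference was 0.61 (limma adjusted p = 0.00723).

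The PKR knockout 5xFAD libraries were higher than wild type in all 5 genes and overlapped with it in none. Of all tested genes 37.0% passed and 17.5% were higher, and 19.8% lay wholly above the wild-type range. Fcer1g rose by 0.99 (SE 0.22, limma adjusted p = 0.00409) and Fcgr2b by 0.97 (SE 0.16, limma adjusted p = 0.000666), to 1.90 and 1.96 times the wild-type FPKM. Fcgr4 rose by 0.82 (SE 0.16, limma adjusted p = 0.00201) and Fcgr3 by 0.73 (SE 0.18, limma adjusted p = 0.0069). Fcgr1 rose least, by 0.45 (SE 0.16, limma adjusted p = 0.0441), and this call was lost without the third wild-type library, where the difference was 0.25 (adjusted p = 0.171), and without any one of the 4 knockout libraries (adjusted p 0.0596 to 0.0959). It was lost, too, with a covariate for non-microglial markers (0.20, adjusted p = 0.271), rescaled to the same sum (0.22, adjusted p = 0.204), with no filter on low values (adjusted p = 0.0552) and with these 2 groups alone (0.0615). Without the third wild-type library the difference of Fcer1g was 0.66 (limma adjusted p = 0.00351). With the covariate it was 0.64, and that of Fcgr4 0.53, and both passed. All 3 comparisons with wild type use the same 3 wild-type libraries, and both comparisons with 5xFAD EGFP within 5xFAD the same 2, so they are not independent.

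With the circRNA and PKR knockout groups set against each other, none of the 5 genes passed the test, where 6.19% of all genes did. The log2 differences, circRNA minus knockout, were −0.23 for Fcgr3, −0.17 for Fcgr2b, −0.15 for Fcgr1, −0.05 for Fcer1g and 0.13 for Fcgr4, with SE of 0.15 to 0.20, and all groups overlapped, where 19.5% of all genes did not. The interval for Fcgr3, −0.59 to 0.12, and for Fcgr4, −0.19 to 0.46, still leave room for differences. With 1 library left out Fcgr3 ran from −0.29 to −0.15, Fcgr2b from −0.25 to −0.07, Fcgr1 from −0.24 to −0.06 and Fcgr4 from 0.07 to 0.22. The values nearest 0 came without circRNA replicate 4, and for Fcgr4 without circRNA replicate 2. Fcer1g was 0.05 without circRNA replicate 4. With the covariate for non-microglial markers Fcgr4 passed, at 0.31 (limma adjusted p = 0.0493, the lowest of its alternatives, which reached 0.993), Fcer1g was 0.17, Fcgr3 −0.08 and Fcgr2b −0.04, and Fcgr1 was 0.0049. Scaled to microglial markers, as described below, Fcgr1 and Fcgr3 passed in the other direction, at −0.30 and −0.38 (limma adjusted p = 0.0464 and 0.0287).

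**Figure D2:**
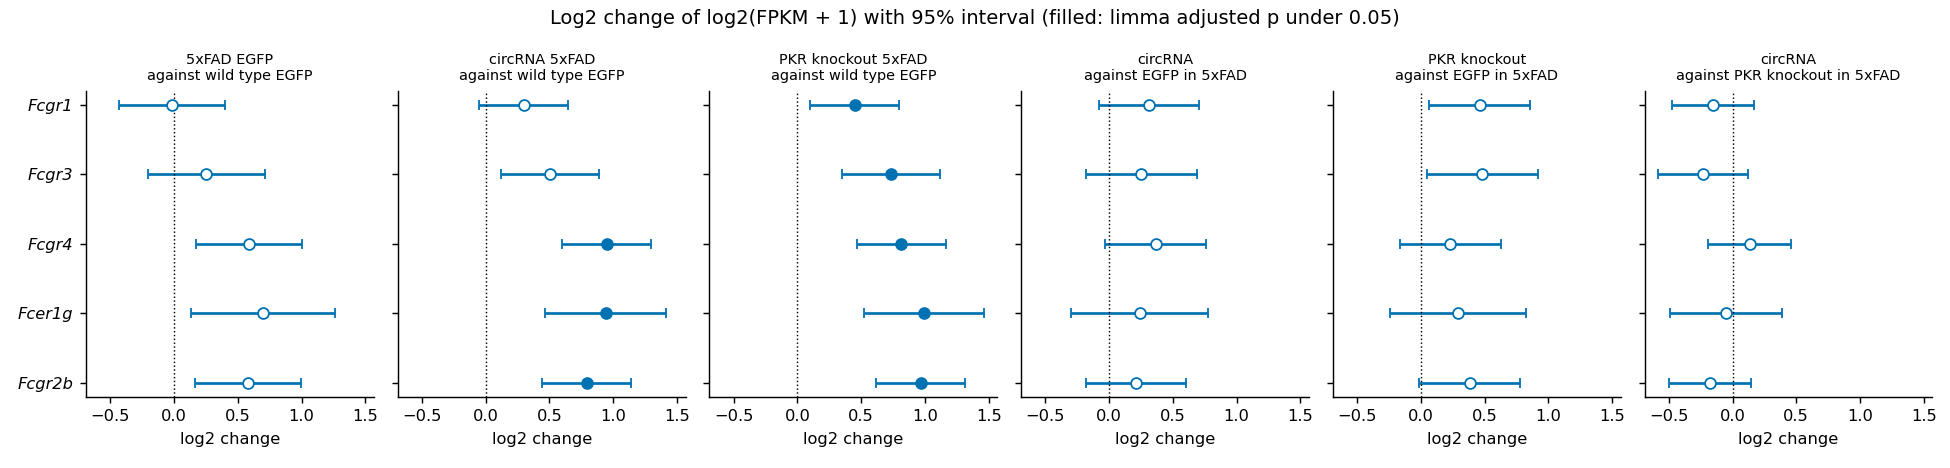
Log2 difference (horizontal axes) of each gene (vertical axis) in the 6 comparisons, 1 panel each, with its 95% interval from limma and a filled point where the adjusted p was under 0.05. The 8 filled points are 3 of the circRNA group and 5 of the PKR knockout, both against wild type.

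Ratios of FPKM within a library do not depend on the scaling of that library, and were used to describe the balance of the receptors, with no test. The size of a ratio or share does depend on the gene lengths used, which are the same in every library. Fcgr1 over Fcgr2b was 1.68, 1.72 and 1.78 in the wild-type libraries. In 5xFAD EGFP it was 1.08 and 1.17, in the circRNA group 1.08, 1.25, 1.26 and 1.26, and in the PKR knockout 1.08, 1.25, 1.21 and 1.22. The wild-type ratios were tightly grouped, including replicate 3, and none of the 10 5xFAD libraries reached them. Fcgr3 over Fcgr2b was 7.35 to 8.02 in wild type, 5.93 and 6.06 in 5xFAD EGFP, 5.76 to 6.44 in the circRNA group and 6.05 to 6.86 in the PKR knockout. For this ratio, too, no 5xFAD library reached the wild-type range. All 3 activating receptors summed, over Fcgr2b, gave 9.50 ± 0.30 in wild type (SD, n = 3) and 7.26 ± 0.03 (n = 2), 7.52 ± 0.43 (n = 4) and 7.70 ± 0.41 (n = 4) in the 5xFAD groups in the same order. The inhibitory Fcgr2b made up 9.53% ± 0.27 of the receptor FPKM in wild type, and 12.1% ± 0.04, 11.8% ± 0.61 and 11.5% ± 0.53 in the 5xFAD groups. Fcgr3 stayed near the same share, 72.8% ± 1.14 in wild type and 72.2% to 73.4% on average in the 5xFAD groups.

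For Fcgr4 the ratio to Fcgr2b was 0.122 ± 0.018 in wild type and 0.136 ± 0.002, 0.159 ± 0.022 and 0.126 ± 0.018 in 5xFAD EGFP, circRNA and PKR knockout, with overlapping ranges. Its ratio to Fcgr1 was 0.0624 to 0.0832 in wild type and 0.0935 to 0.143 across the 10 5xFAD libraries, without overlap. For the signalling chain, Fcer1g over the summed activating receptors was 0.603 ± 0.081 in wild type, 0.840 ± 0.005 in 5xFAD EGFP and 0.827 ± 0.035 in the circRNA group, and 0.741 ± 0.057 in the PKR knockout, where replicate 3 (0.656) fell within the wild-type range of 0.514 to 0.671. Against Tyrobp, the other ITAM chain of microglia, which pairs with TREM2, the ratio was lower in 5xFAD. Fcer1g over Tyrobp was 0.629 ± 0.048 in wild type and 0.319 ± 0.002, 0.343 ± 0.022 and 0.376 ± 0.034 in the 5xFAD groups.

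**Figure D3:**
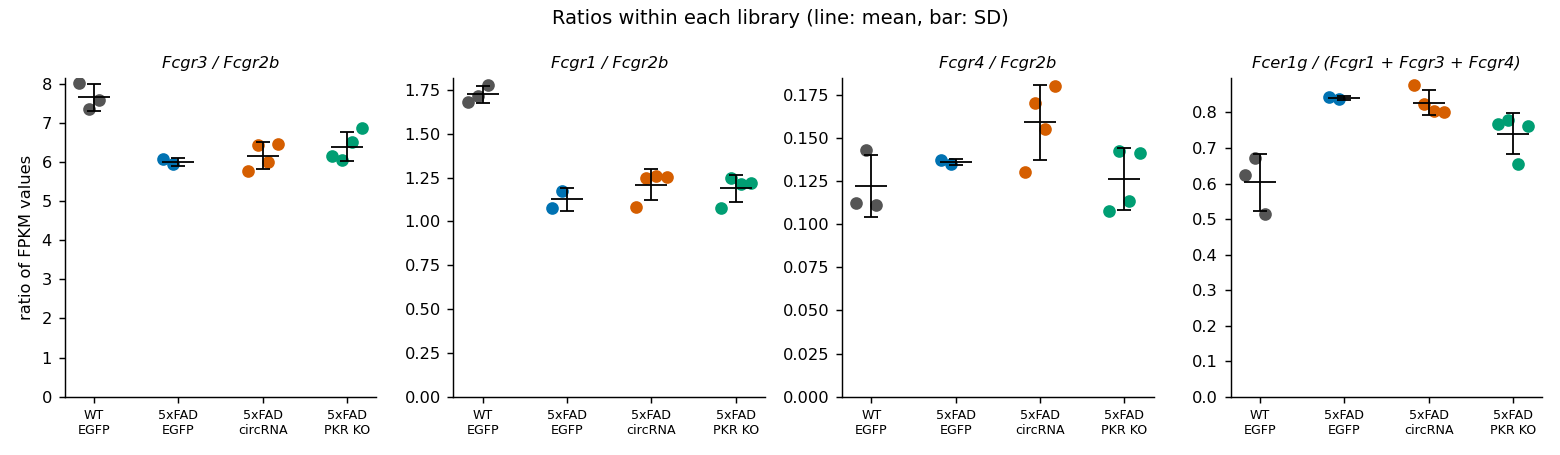
Ratios of FPKM within each library (vertical axes, linear, from 0), by group, with mean and SD. Wild-type libraries lie above all 5xFAD libraries for Fcgr3 over Fcgr2b (7.35 or more against 6.86 or less) and Fcgr1 over Fcgr2b, and Fcgr4 over Fcgr2b overlaps between groups.

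Other cells that carry Fc receptors could bring these transcripts into the libraries, and their markers were summed in each. The 6 monocyte markers were all under 1 FPKM in every library, as were all 7 NK cell, 7 mast cell and 6 T cell markers found in the table. Of 6 B cell markers 5 were under 1 FPKM, and Cd79b reached 3.86. Neutrophil markers summed to between 1.57 and 25.4 FPKM, the highest in PKR knockout replicate 4. Markers of border-associated macrophages, which line the vessels and meninges and also express Fc receptors, summed to 44.9 to 70.9 FPKM in wild type. They were 21.5 and 30.4 FPKM in 5xFAD EGFP, 16.7 to 29.5 in the circRNA group and 16.8 to 22.7 in the PKR knockout, and 7 of 7 tested markers were lower in each 5xFAD group than in wild type (limma). Endothelial markers were lower in 6, 4 and 6 of 8, and mural cell markers in 5, 4 and 5 of 5 tested, in 5xFAD EGFP, circRNA and PKR knockout against wild type (limma). The part of these cells in the member values was not tested. Summed microglial markers ran from 2611 to 4178 FPKM in wild type, 3166 to 3397 in 5xFAD EGFP, 2980 to 4321 in the circRNA group and 3178 to 3492 in the PKR knockout.

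**Figure D4:**
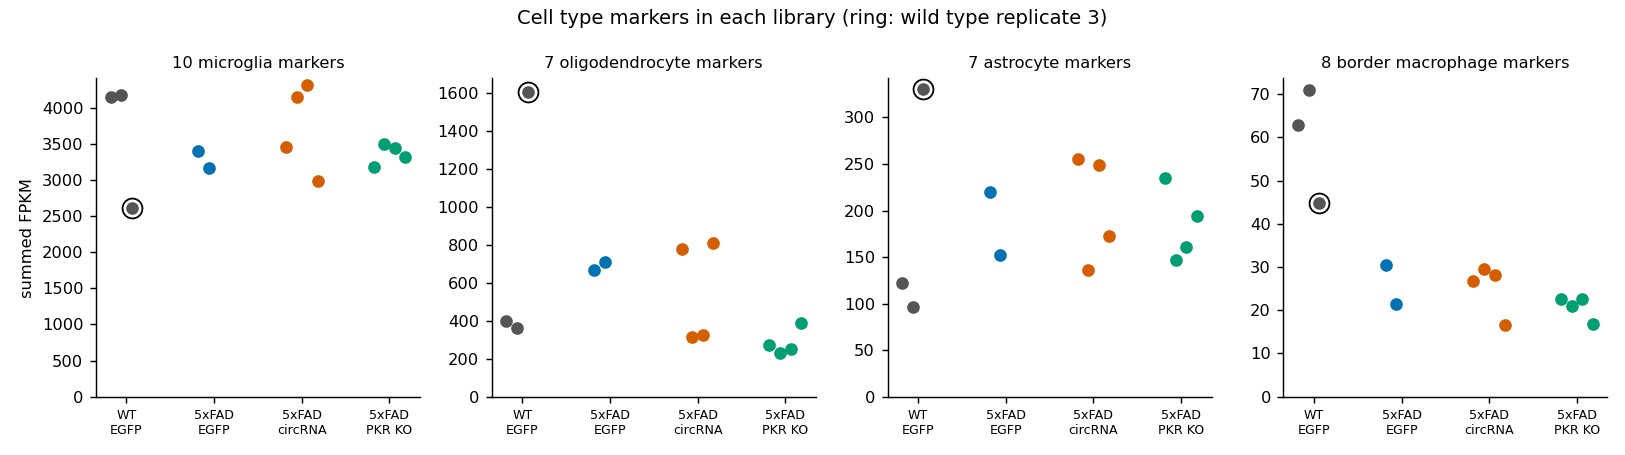
Summed FPKM (vertical axes, linear, from 0) of markers of microglia, oligodendrocytes, astrocytes and border macrophages in each library, by group; the ring marks wild-type replicate 3. That library has the lowest microglial sum and the highest oligodendrocyte sum (1610 FPKM), and the border macrophage sums are highest in wild type.

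Levels of the members were also set relative to microglial markers. Scaled to the mean log level of the 10 microglial markers, an alternative chosen after the data were seen, Fcgr2b was 20.2 ± 0.07 in wild type (SD, n = 3), 36.5 ± 2.35 in 5xFAD EGFP, 37.9 ± 2.09 in the circRNA group and 47.7 ± 4.14 in the PKR knockout. Fcgr1 was 34.8 ± 0.96, 41.1 ± 0.22, 45.8 ± 1.91 and 56.5 ± 2.47 in the same order. Under it Fcgr2b, Fcgr3, Fcgr4 and Fcer1g passed in 5xFAD EGFP against wild type (log2 differences 0.82, 0.50, 0.79 and 0.95), where 1305 of all 10817 genes passed and 1197 were higher. The caveat is that these 10 markers were themselves lower as a set in the 5xFAD groups than in wild type. Their median log2 difference was −0.26 in 5xFAD EGFP, −0.08 in the circRNA group and −0.28 in the PKR knockout, and 1 or 2 of them passed. Lower markers raise the scaled values there, and the median of all genes moved to 0.16 in 5xFAD EGFP against wild type.

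The other genes of the pathway were taken from lists. Their counts are read against the 14.0%, 25.8% and 37.0% of all genes that passed in 5xFAD EGFP, circRNA and PKR knockout against wild type. In 5xFAD EGFP against wild type, 8 of 27 tested genes of proximal activating signalling were higher and 2 lower, with a median of −0.02 against −0.03 for all genes. Fgr, a Src family kinase of myeloid cells, rose by 1.62 (SE 0.18, limma adjusted p = 0.00013), from 0.591 ± 0.162 to 3.88 ± 0.145 FPKM. The kinases Tec (0.76) and Fyn (0.73) rose with it, while Plcg1 (−0.57), which encodes a phospholipase C, and Pik3r1 (−0.37), a regulatory subunit of PI 3-kinase, fell. Syk, the kinase that binds the phosphorylated ITAM, and Lyn did not pass, with differences of −0.27 and −0.24 (limma adjusted p = 0.359 and 0.452). The list had 9 higher and 4 lower in the circRNA group against wild type and 9 and 3 in the PKR knockout. With FPKM rescaled to the same sum the split in 5xFAD EGFP was 6 and 6, and without the third wild-type library it was 8 and 6. For the circRNA group these were 6 and 10, and 8 and 9, so the balance of the list depended on scaling and on that library.

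Of 9 tested genes of inhibitory signalling, 2 were higher in 5xFAD EGFP and 1 lower (14.0% of all genes passed), with a median of −0.14. Ptpn6, the SHP-1 phosphatase, rose by 0.73 (SE 0.18, limma adjusted p = 0.0174), from 35.7 ± 7.86 to 58.8 ± 3.95 FPKM, and Inppl1, the SHIP2 phosphatase, by 0.39. The adaptor Dok3 fell by 1.20 (limma adjusted p = 0.0135), from 10.8 ± 3.01 to 4.00 ± 0.34 FPKM. Inpp5d, the SHIP1 phosphatase recruited by FcγRIIB, was 94.4 ± 19.9 FPKM in wild type and 78.7 ± 4.03 in 5xFAD EGFP and did not pass (−0.24, limma adjusted p = 0.426). In the circRNA and PKR knockout groups against wild type the list had 2 higher and 2 lower in each, where 25.8% and 37.0% of all genes passed. Rescaled to the same sum it had 2 and 5 in the circRNA group, and without the third wild-type library 2 and 4 there and 2 and 3 in 5xFAD EGFP.

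The actin machinery of the phagocytic cup had 3 of 24 genes higher and 1 lower in 5xFAD EGFP, a share near the 14.0% of all genes that passed. Myo1e, a class I myosin of the cup, rose by 2.62 (SE 0.19, limma adjusted p = 2.21e-06), from 4.49 ± 0.953 to 32.4 ± 0.858 FPKM, with Myo1f (0.63) and the Arp2/3 subunit Arpc3 (0.48). The engulfment adaptor Elmo1 fell by 0.57. In the circRNA group 10 were higher and 1 lower, and in the PKR knockout 8 and 1, a share near the 37.0% of all genes in the latter. The Arp2/3 subunits Arpc1b and Arpc2 were among the higher ones. Rescaled to the same sum, these became 5 and 4 in both, and without the third wild-type library 7 and 3, and 6 and 4. In 5xFAD EGFP they became 2 and 2, and 2 and 3. Myo1e, Ptpn6, Tec, Fyn, Fgr and Dok3 kept their calls in 5xFAD EGFP under each scaling and without that library, while Plcg1, Pik3r1 and Elmo1 lost theirs with microglial marker scaling.

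Of 3 tested genes in a list of other adaptor chains and paired receptors, Tyrobp (DAP12, an ITAM chain) and Hcst (DAP10, an adaptor that recruits PI 3-kinase and has no ITAM) rose in 5xFAD EGFP. Tyrobp rose by 1.68 (SE 0.26, limma adjusted p = 0.00109), from 208 ± 60.4 to 649 ± 74.4 FPKM, and Hcst by 0.89 from 1.79 ± 0.94 FPKM. Without the third wild-type library Hcst differed by 0.76 and did not pass (adjusted p = 0.0592). Among 16 regulators of Fc receptor genes, Tgfbr2 (0.66) and Irf8 (0.56) rose and none fell, a share near the 14.0% of all genes, with a median of 0.01. Irf8, an interferon regulatory factor of the myeloid lineage, went from 30.1 ± 5.36 to 44.2 ± 0.953 FPKM. Spi1, which encodes PU.1, was 37.1 ± 9.36 FPKM in wild type and 36.3 ± 2.1 in 5xFAD EGFP, a difference of 0.00. In this list 4 were higher and none lower in the circRNA group, and 5 and 1 in the PKR knockout, shares near the 25.8% and 37.0% of all genes. Rescaled to the same sum these were 2 and 3, and 3 and 3, and without the third wild-type library 3 and 3, and 4 and 2. In 5xFAD EGFP both settings gave 2 and 2.

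Of 13 other immunoglobulin receptors in the table, 10 had means under 1 FPKM, and the 3 tested were Fcgrt, Trim21 and Fcrl1. Fcgrt, the neonatal receptor that recycles IgG, was 20.3 ± 2.16 FPKM in wild type, 13.5 ± 1.72 in 5xFAD EGFP, 15.7 ± 3.52 in the circRNA group and 14.6 ± 1.42 in the PKR knockout. It fell in the PKR knockout (by 0.45, limma adjusted p = 0.0289), and did not pass in 5xFAD EGFP (−0.55, adjusted p = 0.0547), except without the third wild-type library (0.0321), rescaled to the same sum (0.00451) or with the marker covariate (0.0186). Fcrl1 fell by 0.46 in the circRNA group (adjusted p = 0.021) and by 0.40 in the PKR knockout (adjusted p = 0.0292). With median-ratio or microglial marker scaling neither passed in the PKR knockout. Of the genes of immunoglobulins themselves, only Jchain was in the table, at 0.177 FPKM or less.

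No gene in any of these lists passed in either the circRNA group or the PKR knockout against EGFP within 5xFAD, where 0.00% and 0.0832% of all genes did. Between the circRNA group and the PKR knockout 6.19% of all genes passed. The lists had 1 of 27 genes of proximal activating signalling, 1 of 9 of inhibitory signalling and 1 of 16 regulators. Of these, Inppl1 was lower in the circRNA group by 0.33 (limma adjusted p = 0.00952) and Irf1 by 0.42 (limma adjusted p = 0.0491). Pik3cd was lower by 0.40.

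**Figure D5:**
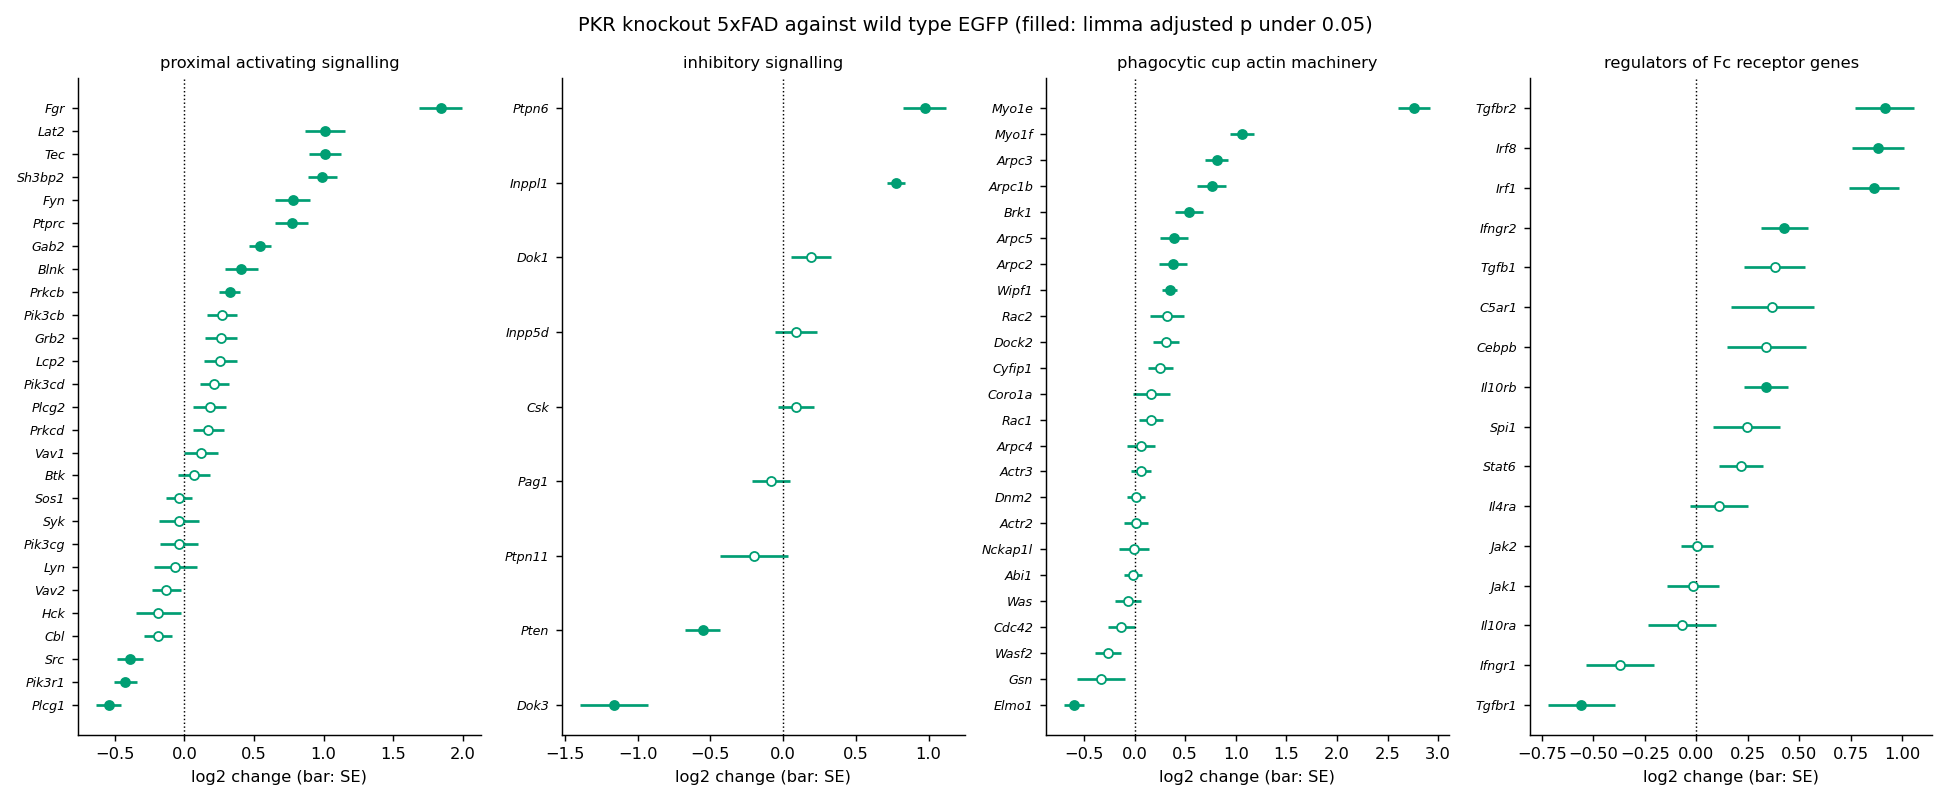
Log2 difference between PKR knockout 5xFAD and wild type (horizontal axes, with SE bars) for each tested gene of 4 pathway lists (vertical axes), filled where the limma adjusted p was under 0.05. Myo1e (2.76) and Fgr (1.84) lie farthest to the right, Dok3 (−1.16) lies farthest to the left, and most open points lie near 0.

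Neighbouring genes were described because 4 members share 1 region. Of 19 tested genes within 250 kb of the chromosome 1 members, none was higher and Pcp4l1 (−1.19) and Usp21 (−0.44) were lower in 5xFAD EGFP against wild type, with a median of −0.05 (14.0% of all genes passed). In circRNA against wild type 1 of 19 was higher and 2 lower (25.8% of all genes passed and 17.8% were higher). In the PKR knockout against wild type, where all 4 chromosome 1 members were higher, 0 of 19 neighbours were higher and 3 lower (37.0% and 17.5% of all genes). Of 5 neighbours of Fcgr1 on chromosome 3, 2 were higher and 1 lower in that comparison.

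The genes whose log2 levels were most like each member over the 13 libraries were named as a description. The points are the same 13 libraries, with wild-type replicate 3 among them. They differ in depth and in markers of other cells, whose part in these values was not tested. For Fcgr2b they were Adipor1, Man2b2 and Lag3, each with a Pearson r of 0.99, and for Fcer1g Man2b1 (0.99), C1qa (0.98) and Rab27a (0.98). For Fcgr3 they were Noc2l (0.99), C1qc (0.98) and Trim14 (0.98), and for Fcgr4 Galnt3, Acsl5 and Hvcn1 (each 0.98). For Fcgr1 they were Snx2 (0.96), Rab32 (0.95) and Itgb5 (0.94). Between members, r ran from 0.77 (Fcgr1 with Fcgr4) to 0.97 (Fcgr2b with Fcer1g).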

How the data were processed

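The authors deposited 1 table of FPKM values per gene for all 13 libraries. Per the submitters' processing notes the tools were HISAT2 2.1.0, Bowtie2 2.3.5 and featureCounts 1.5.1 with build mm10; their roles and the gene annotation are not given in the sources used here. Of 19737 genes, 10817 averaging 1 FPKM or more were tested with limma 3.58.1 (R 4.3.3), with an intensity trend, on log2(FPKM + 1), with 1 mean for each of the 4 groups and 9 residual degrees of freedom. P-values were adjusted by Benjamini-Hochberg over all tested genes in each of 6 comparisons, with a threshold of 0.05. Depth was recovered by trying fragment totals against exon lengths: 91.7% of low values fell within 0.02 of a whole fragment, where chance gives 4%. A count test on these fragments (voom) was one of the alternatives, beside other pseudocounts, filters, scalings, designs and each library left out. All 5 members are named, and from every other list up to 3 raised and 3 lowered genes with the largest change past the threshold in 5xFAD EGFP against wild type; Syk, Lyn, Inpp5d, Spi1, Fcgrt and other genes named beyond that rule were chosen after their values were seen. The members and lists were chosen with earlier results of these data known, and 1 gene of the regulators list is not reported here. Replicate pairs differed beyond sampling noise (chi-square per degree of freedom 13.7 or more), so none was counted as a duplicate. The fit was tested on simulated data.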

Additional observations from a re-analysis of the deposited data

Results flagged for a closer look

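The check used 36 sets of 4 libraries, each a gene, ratio, share or sum in the circRNA group or the PKR knockout. In 3 sets a library lay far from the others. Chance gives about 1 in 20 for a single set, but the sets are built from the same genes. They are not independent, so no excess can be read from the 3. Fcer1g was lowest in PKR knockout replicate 3, at 237 FPKM against 257 to 259 in the other 3. The ratio of Fcer1g to the summed activating receptors was lowest in the same library, at 0.656 against 0.761 to 0.779. In that library Fcgr3 was the highest of its group, at 300.4 FPKM. The ratio of Fcgr1 to Fcgr2b was lowest in circRNA replicate 1, at 1.08 against 1.25 to 1.26.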

How the results depend on the processing

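Of 465 pairs of a member's comparison and an alternative, 424 kept direction and side of the threshold, 10 lost the call, 23 gained it and 8 reversed. In 5xFAD EGFP against wild type, 0 members and 1514 genes passed. Members came to 2 with median-ratio scaling, 3 with a covariate for non-microglial markers (2550 genes) and 4 with microglial marker scaling (1305 genes), while 3709 genes passed when rescaled to the same sum and 509 with 2 groups alone. Leaving out 1 library gave 0 to 2 members and 566 to 1998 genes, the 2 being Fcgr2b and Fcgr4 without wild-type replicate 2 and 566 and 666 coming without 5xFAD EGFP replicates 2 and 1. Fcgr1 changed sign there, to 0.052 with median-ratio scaling and 0.23 with microglial marker scaling, and ran from −0.21 to 0.092 with 1 library left out. For circRNA against EGFP, 3 genes passed with the marker covariate and 0 otherwise. For the PKR knockout against EGFP, 9 genes passed. The count was 0 with a pseudocount of 0.1, with no filter, rescaled to the same sum and with voom, 46 with median-ratio scaling, 18 with the covariate and 18 with microglial marker scaling, and 577, with 3 members, with 2 groups alone. It was 0 to 2 with any 1 library left out.

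For circRNA against wild type (3 members, 2796 genes), 5676 genes passed rescaled to the same sum and 1725 with 2 groups alone, and 5 members and 1871 genes with microglial marker scaling. For the PKR knockout against wild type (5 members, 3997 genes), 6595 genes passed rescaled to the same sum. For circRNA against the PKR knockout (0 members, 670 genes), 1 member, Fcgr4, and 1344 genes passed with the covariate, and 2 members, Fcgr1 and Fcgr3, and 214 genes with microglial marker scaling. With 1 library left out, 147 to 506 genes passed, fewest without PKR knockout replicates 1 (147), 2 (164) and 3 (225) and circRNA replicates 1 (162) and 3 (310). Fcgr1 and Fcer1g changed sign there with the covariate, to 0.0049 and 0.17, and Fcer1g ran from −0.11 to 0.049 with 1 library left out. The cause of these shifts was not tested. Rescaling to the same sum moved the median of all genes from −0.03 to −0.17, from 0.02 to −0.20 and from −0.05 to −0.24 in the 3 comparisons with wild type. The share of calls that were higher moved from 54.6% to 19.1%, from 68.8% to 17.5% and from 47.5% to 17.8%, and with microglial marker scaling it was 91.7%, 85.9% and 86.9%. With median-ratio scaling it was 65.6% for the PKR knockout against wild type. For circRNA against the PKR knockout it was 69.1%, and 49.6% rescaled to the same sum, 17.5% with median-ratio and 2.34% with microglial marker scaling.

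Same-numbered libraries did not deviate together in every pair (r −0.42 to 0.69 for circRNA and wild type, −0.18 to 0.58 for PKR knockout and wild type, 0.04 to 0.55 for circRNA and PKR knockout, and 0.27 and 0.38 for the 2 pairs of PKR knockout and EGFP), so the numbers were not taken to pair them. With a replicate block, 22 genes passed for the PKR knockout against EGFP and 448 for circRNA against PKR knockout, and the members' counts were 0, 0, 0, 3, 5 and 0 as without it. A group of 2 with 1 left out has a lone library that is assumed to vary like the rest. Depth limits Fcgr4 most.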
